A study of Mus musculus with 20 samples.

Results

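Of the 7543 genes listed in the ribosome-bound table of maturing mouse oocytes, 197 had no entry in the matching table of total RNA, and 163 of these are described here. The rule left out 34 genes of named families: 17 unnamed gene models with a Gm number, 5 Nduf, 4 Zfp, 2 Cox and 2 Mrpl genes, and 1 each of Atp5, Psm, Rpl and Slc. The total RNA table listed 7917 genes, of which 7346 were in both tables and 571 were in that table alone. None of the 163 appeared in total RNA under another identifier or another version of the same identifier. How genes were chosen for each table is not stated in the labels or headers, so a gene with no entry in total RNA was not shown to be absent there, and its total RNA value is not analysed here.

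Oocytes came from C57BL/6 females of 3 weeks that were Zp3-Cre+ and carried RiboTag, in which Cre exchanges an exon of a ribosomal protein gene for a version with an HA tag. Zp3 is expressed in growing oocytes, so the tag marks ribosomes of the oocyte, and every group shared this genotype. Mice had received 5 IU of PMSG, follicles were opened 44 h later, the cumulus cells were stripped off, and the oocytes were kept in prophase I with 1 µM cilostamide, a phosphodiesterase inhibitor. After transfer to medium without the inhibitor, samples of 200 oocytes were frozen at 0 h (prophase I), 2 h, 4 h and 6 h (early, mid and late prometaphase I) and 8 h (metaphase I). Each time had 2 ribosome-bound libraries from the HA pull-down and 2 total RNA libraries. Titles and the series design name the second kind as input or total RNA, whereas its description field reads ribosome-bound; the titles were followed. Separate mice or cultures are not named for replicates 1 and 2, so the p-values below describe the spread between these libraries, which may be technical.

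A fully grown oocyte is transcriptionally silent and works from mRNAs that it stored while growing. Which of these are on ribosomes changes as meiosis resumes, in part through lengthening and shortening of the poly(A) tail, which is directed by short elements near the 3' end. Pulling down tagged ribosomes gives the mRNAs they carry, and each library reports shares of its own pool, so less of one mRNA and more of all others cannot be told apart.

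The deposited values are scaled CPM (reads of a gene relative to the library, times a factor per library), and 7534 of 7543 genes reached 10 in at least 3 libraries, so nearly every listed gene was high somewhere in the course. The 163 genes stood at the low end of the table. Their means over the 10 ribosome-bound libraries ran from 5.58 to 21.2, with a median of 9.56, whereas the median over all genes of the table was 42.8 and the highest mean was 11836. A value of 10 corresponded to between 282 and 443 reads, with a counting error of 4.75% to 5.95%, out of 27571236 to 44943993 reads in listed genes per library. Replicates differed by more than counting error, with a chi-square per degree of freedom of 48.6 to 154. On the axis of largest variance (49.1%) the libraries lay in order of time, and on the next (12.5%) the 4 h replicate 1 stood apart at -35.2, with the nearest library at -4.88. Calls at 4 h and mid-course highs that lean on that library are given with it named.

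**Figure D1:**
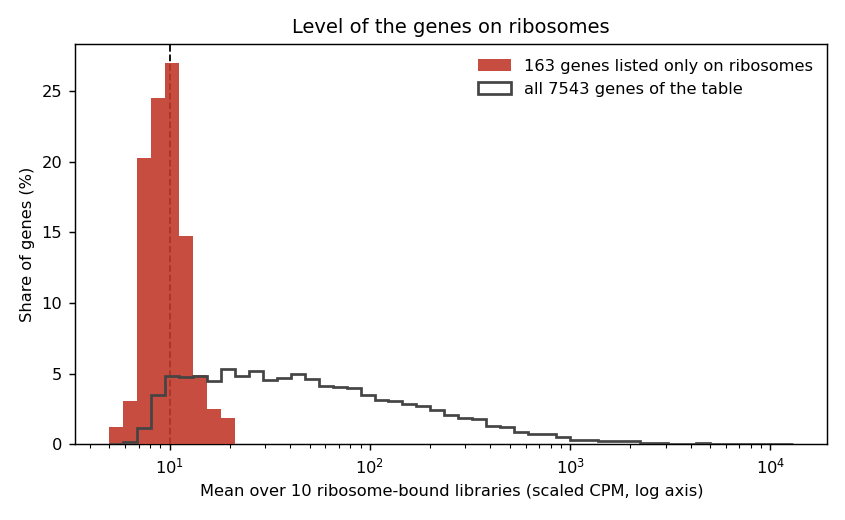
Share of genes (%) by their mean over the 10 ribosome-bound libraries (scaled CPM, log axis), for the 163 genes listed only on ribosomes (filled) and all 7543 genes of the table (outline), with the listing value of 10 dashed. The 163 genes lie between 5.58 and 21.2, around the dashed line, and the median of all genes is 42.8.

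Most of the 163 genes were at 10 or more in a few libraries. A value of 10 was reached in 2 libraries by 2 genes, in 3 libraries by 58, in 4 by 33, in 5 by 26, in 6 by 16, in 7 by 17, in 8 by 4, in 9 by 4 and in all 10 by 3. By contrast, 5553 genes of the table (73.6%) had at least 10 in all 10 libraries. Both replicates of at least 1 time reached 10 in 119 of the 163 genes, and in the other 44 no time had both. The 3 genes at 10 or more throughout were Coq7, a hydroxylase of ubiquinone synthesis, Paox, a peroxisomal polyamine oxidase, and Sertad3.

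At the edge of the rule, the lowest maxima were 10.3 in Eif3j2, 10.8 in Arpc1a, a subunit of the actin-nucleating Arp2/3 complex, and 11.2 in Muc16, a membrane mucin. The highest single values were 51.0 in Med16, a Mediator subunit, 35.7 in Tfrc, the transferrin receptor, and 34.8 in Sertad3. The Med16 value came from 0 h replicate 1, while 0 h replicate 2 held 6.84, and the Tfrc value came from 0 h replicate 2, while 0 h replicate 1 held 13.5. Just outside the rule, the genes of both tables with the lowest means in total RNA were Ncaph2 (6.87), Prcc (6.94) and 4430402I18Rik (6.95), each at 10 or more in 3 of its libraries.

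The number of these genes at 10 or more was highest at 0 h and lowest at 8 h. In replicates 1 and 2 it was 95 and 97 at 0 h, 82 and 75 at 2 h, 80 and 85 at 4 h, 75 and 59 at 6 h, and 51 and 54 at 8 h. These are 31.3% to 59.5% of the 163, whereas 87.2% to 92.7% of all listed genes were at 10 or more in each library. Their median value was 7.09 and 7.41 in the 8 h libraries, against 10.8 and 11.4 in the 0 h libraries. Their summed share of the ribosome-bound total was 0.131% and 0.127% at 8 h, against 0.182% and 0.200% at 0 h. At both replicates of a time, 68 genes reached 10 at 0 h, 42 at 2 h, 44 at 4 h, 32 at 6 h and 30 at 8 h. For 27 genes 0 h was the sole time at which both replicates did, and for 9 genes it was 8 h.

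The mean was highest at 0 h in 70 of the 163 genes, at 2 h in 20, at 4 h in 33, at 6 h in 20 and at 8 h in 20. These are 42.9%, 12.3%, 20.2%, 12.3% and 12.3% of the 163, beside 33.5%, 13.3%, 13.4%, 10.8% and 29% of all genes of the table. The lowest mean was at 8 h in 82 of the 163 genes, beside 32.2% of all genes of the table. Single libraries held many of the peaks: 45 of the 163 genes (27.6%) had their highest value in 0 h replicate 2, and 28 (17.2%) in 4 h replicate 1, compared with 17.2% and 11.3% of all genes.

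**Figure D2:**
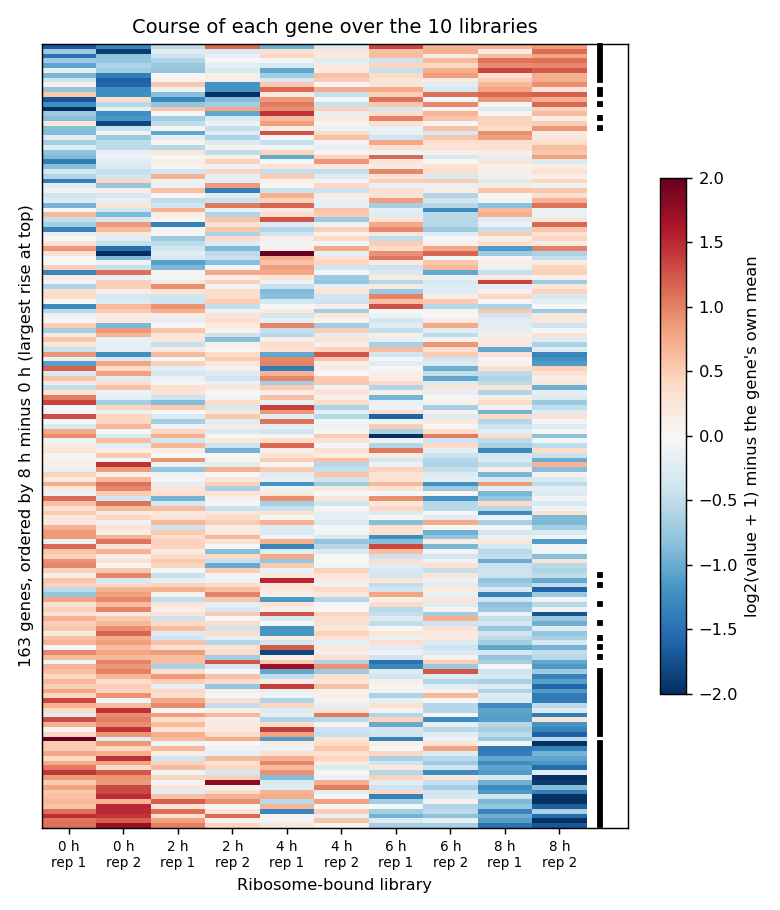
log2(value + 1) of each of the 163 genes in each of the 10 ribosome-bound libraries, relative to the gene's own mean over the libraries (red higher, blue lower). Genes run from the largest rise at 8 h against 0 h at the top to the largest fall at the bottom, so this contrast sets the order; black squares at the right mark the 13 that rose and the 39 that fell past the test.

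The change on ribosomes was measured at each time against 0 h with limma on log2(value + 1), fitted over all 7543 genes with Benjamini-Hochberg adjustment at 0.05. Changes below are on that scale with the standard error after ±, and the pseudocount of 1 makes them understate the change of low genes. At 8 h, 52 of the 163 genes passed, 13 up and 39 down, and all 52 differed at least 2-fold. That is 31.9% of them, beside 42.1% of all genes. By direction it is 7.98% up beside 20.2% of all genes, and 23.9% down beside 21.8%. The median change of the 163 was -0.54, beside -0.06 over all genes, and 54 changes were positive and 109 negative. These shares are descriptions and were not tested against the rest of the table. Of the 39 genes that fell, 35 were under 10 in both 8 h libraries, and of the 13 that rose, 12 were under 10 in both 0 h libraries. Most called genes thus reached 10 through the times at which they were high, and nearly all listed genes reach it in 3 or more libraries. For such genes the changes and p-values here and below describe values that also bore on the listing, and they are not independent evidence of a change. The 8 h and 0 h libraries did not overlap in 110 genes (67.5%), beside 69.4% of all genes.

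The 8 h count depended on which library was left out. It was 21 (3 up, 18 down) without 8 h replicate 2 and 37 without 8 h replicate 1, and 28 without 0 h replicate 2 and 40 without 0 h replicate 1. Each of these fits leaves 1 library in a group, which is taken to vary like the other groups. The median standard error of the change was 0.51 for the 163 genes and 0.28 for all genes, and the median gap between replicates was 0.42 to 0.55 over the 5 times, beside 0.21 to 0.32 for all genes and 0.36 to 0.50 for genes with a mean up to the highest of the 163.

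At earlier times fewer of the genes passed. At 2 h none did, beside 1.47% of all genes (0.729% up, 0.742% down). An unadjusted limma p under 0.05 was seen in 11 of the 163, a count that was not made over all genes. At 4 h, 8 passed, 4 up and 4 down (4.91%, beside 15.7% of all genes, 9.16% up and 6.56% down). These calls were lost without 4 h replicate 1. With all libraries in the fit, 31 of the 163 had an unadjusted limma p under 0.05, again not counted over all genes. At 6 h, 20 passed, 8 up and 12 down (12.3%, beside 27.9% of all genes, 14.6% up and 13.3% down), and 6 did without 6 h replicate 1. Of the 20 called at 6 h, 16 were also called at 8 h. Libraries did not overlap with those of 0 h in 63 of the 163 genes at 2 h, 82 at 4 h and 82 at 6 h (38.7%, 50.3% and 50.3%), beside 47.2%, 53.1% and 63.1% of all genes. The median change was -0.16, -0.13 and -0.37 at 2, 4 and 6 h, beside 0.01, -0.01 and -0.03 over all genes. In all, 59 genes were called at 1 or more times, 34 of them at 8 h alone, and 104 at none. The same counts were not made over all genes, so they describe the 163 alone. An F-test over the 5 times called 32 of the 163 (19.6%), beside 34.6% of all genes, and without 8 h replicate 2 it called 7 of the 163.

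**Figure D3:**
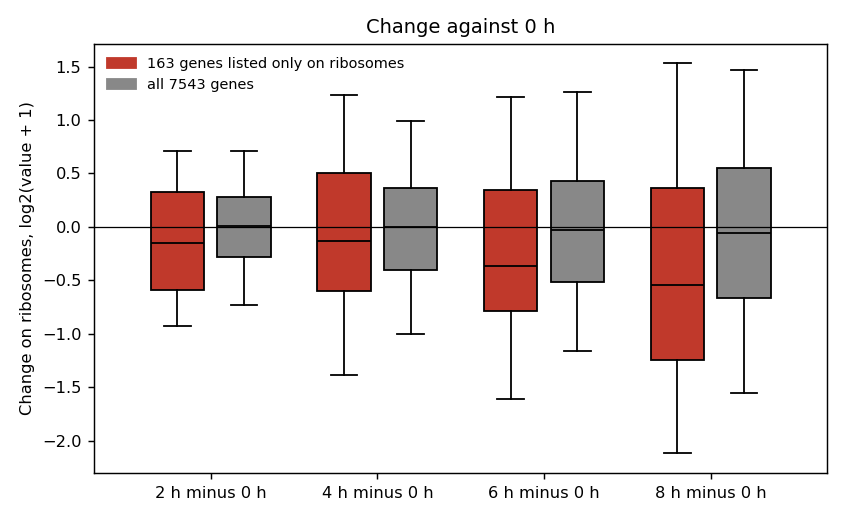
Change on ribosomes against 0 h at 2, 4, 6 and 8 h, log2(value + 1), for the 163 genes (red, left of each pair) and all 7543 genes (grey). Boxes span the quartiles with the median as a line, and whiskers run from the 5th to the 95th percentile; the median of the 163 genes is -0.54 at 8 h and that of all genes -0.06.

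The genes below are grouped by what they are known to do. Over all genes, 20.2% rose and 21.8% fell at 8 h. The groups were formed after values had been seen, hold 131 of the 163 genes in 13 roles and leave 32 unplaced, and their counts are descriptions.

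Germ-line genes held changes in both directions. Of 11, 1 rose and 4 fell at 8 h, with a median of -0.35. Figla, the oocyte factor that switches on the zona pellucida genes (GRCm38, as for all positions here, chromosome 6, 86016171 to 86020996), had 2.39 and 3.51 in the 8 h libraries, against 13.4 and 19.6 at 0 h. Its values lay apart without overlap, and the course in between was 8.67 and 8.02 at 2 h, 5.80 and 15.7 at 4 h, and 5.16 and 4.13 at 6 h. The fall was -2.14 ± 0.52 (limma adjusted p 0.0034). Tbpl2, an oocyte relative of the TATA-binding protein (chromosome 2, 24071721 to 24096595), did the opposite, with 15.2 and 15.4 at 8 h against 3.61 and 3.44 at 0 h. It rose by 1.85 ± 0.52 (limma adjusted p 0.0083). The 6 h libraries held 4.73 and 11, and 8 h was not tested against 6 h. Leaving out 8 h replicate 2 ended the Tbpl2 call (adjusted p 0.054).

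The other germ-line genes that fell are known from the male germ line of the mouse. Pnldc1, which trims PIWI-interacting RNAs, held 4.21 and 2.71 at 8 h against 21.0 and 13.1 at 0 h (-2.0 ± 0.47). Fkbp6, a co-chaperone of the same pathway, held 3.51 and 3.41 against 11.1 and 24.1 (-1.97 ± 0.51). Ccdc42, needed for the sperm tail, held 2.53 and 0.831 against 8.83 and 11.4 (-2.12 ± 0.63). All 3 passed the test with no overlap; the Ccdc42 call was lost without 0 h replicate 2 and without 8 h replicate 2. Of the 15 oocyte markers listed on ribosomes, Figla was the sole one with no entry in total RNA, and 3 rose and 11 fell at 8 h.

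Nuclear-encoded mitochondrial genes included the largest fall of the 163. Of 17 such genes, 4 fell and 1 rose at 8 h, with a median of -0.24. Atpif1, the inhibitor that blocks ATP synthase from running backwards (chromosome 4, 132530555 to 132533659), held 1.15 and 0.831 at 8 h against 11.8 and 19 at 0 h. The mean declined at every step, with 11.1 and 7.03 at 2 h, 5.94 and 5.07 at 4 h, and 2.78 and 2.78 at 6 h. The change was -2.08 ± 0.55 at 6 h (adjusted p 0.009) and -3.01 ± 0.55 at 8 h (adjusted p 0.00032). It was at 10 or more in both 0 h libraries and 1 of 2 h, so its listing rested on the times at which it was high; the 6 h call was lost on leaving out 0 h replicate 2. Exons of Atpif1 overlap Gm12999 on the other strand, and 15.3% of the 50-base stretches of Atpif1 also occur in that gene. The genes most like Atpif1 over the 10 libraries, among the 163, were Bre (Pearson r 0.93), Upk3bl (0.93) and Vdac3-ps1 (0.93). This likeness is a description over libraries that share their time and depth.

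Fis1, an adaptor for mitochondrial fission, held 5.48 and 2.55 at 8 h against 15.5 and 30.5 at 0 h (-2.25 ± 0.49, limma adjusted p 0.0013). Sdhb, the iron-sulfur subunit of succinate dehydrogenase, held 2.53 and 0.400 against 9.38 and 9.54 (-2.23 ± 0.61), a call lost without 8 h replicate 2. Both fell with no overlap between the times. Mettl15, a methyltransferase of mitochondrial ribosomal RNA, rose at 6 h, with 20.9 and 15.1 against 5.10 and 3.90 at 0 h (1.78 ± 0.43, adjusted p 0.006), and was still up at 8 h (1.30 ± 0.43, adjusted p 0.023). Exons of Mettl15 overlap Kif18a on the other strand, but 0% of the 50-base stretches of the Mettl15 transcript examined also occur in another gene. The strand used in the counting is not known, and the part of the overlap in the Mettl15 values was not tested. The 6 h call was lost without 6 h replicate 1. Coq7, with the highest mean of all (21.2), held 22.3 and 25.6 at 8 h against 23.4 and 33.4 at 0 h, a change of -0.22 ± 0.36 (adjusted p 0.65). A separate list of mitochondrial import and assembly genes, which holds Apool of the 163, had 9 of 22 down and none up over the whole table.

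Genes for peroxisomes and metabolic enzymes moved in one direction where they passed. Of 16, 7 fell and none rose at 8 h, with a median of -1.09. Grhpr, which reduces glyoxylate and hydroxypyruvate, held 1.10 and 2.43 at 8 h against 10.3 and 13.9 at 0 h (-2.27 ± 0.66). Nudt19, a peroxisomal hydrolase of coenzyme A, held 2.90 and 2.31 against 11.5 and 20.6 (-2.20 ± 0.52, limma adjusted p 0.0028). Paox fell the least of the 7, with 11.3 and 13.2 against 26.7 and 25.4 (-1.03 ± 0.33, limma adjusted p 0.018). Qdpr, which regenerates tetrahydrobiopterin, Them4 and Acot11, which are acyl-CoA thioesterases, and the glutathione peroxidase Gpx1 made up the rest, at -1.97, -1.71, -1.31 and -1.57. The libraries of the times did not overlap in any of the 7. The Grhpr call was lost without 0 h replicate 2 and without 8 h replicate 1. Exons of Paox overlap Echs1, and those of Acot11 overlap Fam151a, on the other strand. Those of Nudt19 overlap B230322F03Rik on the other strand, and 39.5% of the 50-base stretches of Nudt19 also occur in that gene. Of the 50-base stretches of Paox, 28.9% also occur in another gene, foremost Gm19680 (27.3%). Pex5, the receptor that carries enzymes into peroxisomes, stood at -1.14 and did not pass (adjusted p 0.052).

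All 7 genes of the lysosome and its proton pump had negative changes at 8 h, between -0.37 and -1.90, and 3 passed. Among the 163 genes as a whole, 109 changes were negative and the median was -0.54. Acp5, the tartrate-resistant acid phosphatase, held 2.74 and 4.09 at 8 h against 15.5 and 15 at 0 h (-1.90 ± 0.46). Atp6v1f, a subunit of the proton pump, held 5.34 and 3.66 against 14.7 and 11.7 (-1.38 ± 0.45). Glmp, a lysosomal membrane glycoprotein, held 3.44 and 10.3 against 22.6 and 18.4 (-1.59 ± 0.57). Its exons overlap Tmem79 on the other strand, and 29.5% of its 50-base stretches also occur in that gene. Glmp had already passed at 4 h, with 5.19 and 5.57 (-1.74 ± 0.57, adjusted p 0.047), a call lost on leaving out either replicate of 0, 2 or 4 h. Atp6ap2, an accessory protein of the pump and one of the 5 highest means (16.5), held 10.3 and 15 at 8 h against 23.3 and 25.8 and did not pass (-0.93, adjusted p 0.081).

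Among 14 genes of RNA processing, the nucleolus and protein synthesis, 3 fell (21.4%, beside 21.8% of all genes) and none rose, with a median of -1.09. Pop5, a protein of RNase P and RNase MRP (chromosome 5, 115235836 to 115245351), held 1.62 and 0.769 at 8 h against 13.3 and 12.9 at 0 h. Its replicates were close, with 4.41 and 3.60 at 4 h and 1.65 and 1.94 at 6 h, and it fell by 2.33 on the log2 scale at 6 h and by 2.71 at 8 h (limma adjusted p 0.007 and 0.0014). Nop10, of the ribonucleoproteins that guide pseudouridylation, and Hars, the cytosolic histidyl-tRNA synthetase, also fell (-1.86 ± 0.48 and -1.26 ± 0.42). Med16 did not pass (-1.77 ± 0.71, adjusted p 0.053), with its single value of 51.0 at 0 h. Rbm34 was lowest in mid-course, with 4.43 and 5.40 at 2 h against 10.7 and 9.86 at 0 h, and passed the F-test (adjusted p 0.049) but not the 2 h comparison. Eif3j2 shares 91.8% of its 50-base words with other genes, foremost Eif3j1, so reads could be split between them; its change at 8 h was -0.48 (adjusted p 0.42).

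**Figure D4:**
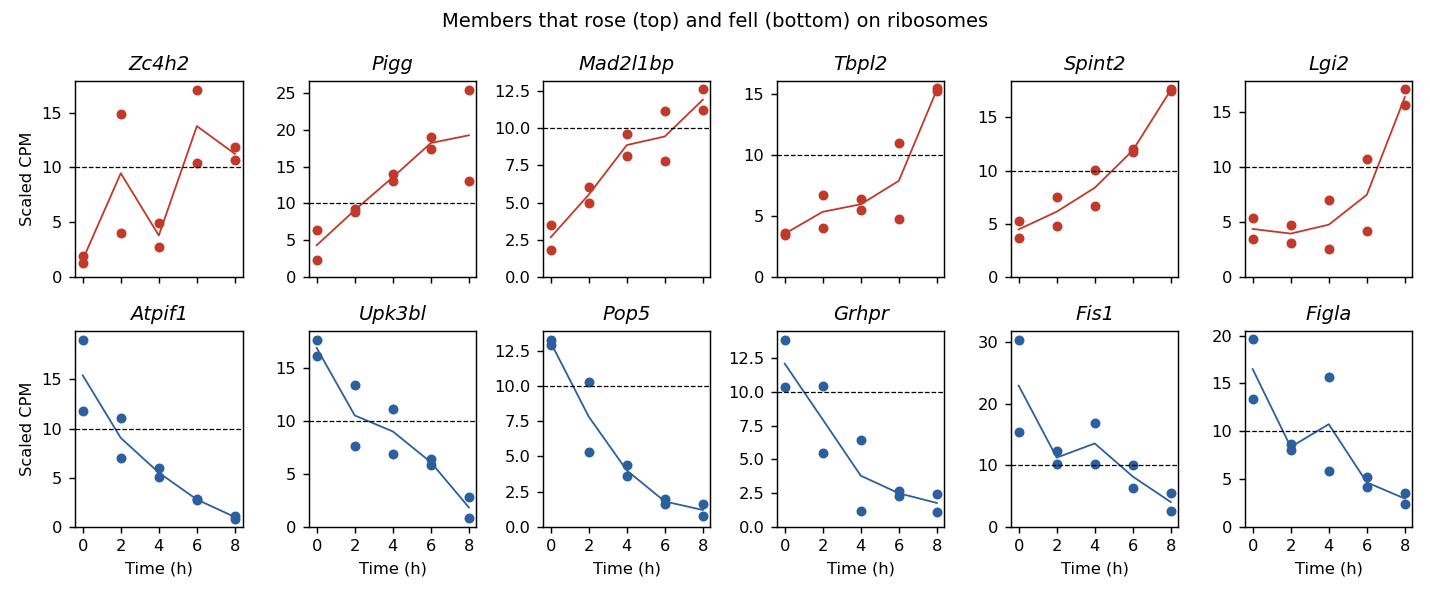
Scaled CPM of 12 of the genes in both ribosome-bound libraries of each time (points) with their mean (line) over 0 to 8 h; the dashed line marks 10 and each panel has its own vertical axis. The top row holds 6 genes that rose at 8 h and the bottom row 6 that fell; the points of 8 h and 0 h do not overlap in any panel.

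Genes for the cell surface and secreted proteins supplied most of the rises. Of 16, 7 rose and none fell at 8 h, with a median of 0.55. The group was drawn up with these values known. It leaves out Upk3bl, a uroplakin-like membrane protein gene that fell (-2.75) and was not placed in a role. Spint2, an inhibitor of membrane serine proteases, held 17.5 and 17.7 at 8 h against 3.63 and 5.28 at 0 h. Its replicates lay close from 6 h on, when they held 12 and 11.8, and the rise was 1.26 at 6 h and 1.79 ± 0.46 at 8 h (limma adjusted p 0.048 and 0.0046). Lgi2, a secreted leucine-rich protein, held 17.1 and 15.7 at 8 h against 5.32 and 3.40 at 0 h (1.72 ± 0.58). Its 6 h libraries held 4.20 and 10.7, and 8 h was not tested against 6 h. Otogl, related to the inner ear protein otogelin, held 8.59 and 11.4 at 8 h against 3.06 and 1.95 (1.66 ± 0.54).

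Sema4c, a membrane semaphorin, peaked earlier than the others. It held 14.3 and 10.7 at 4 h, when it rose by 1.94 ± 0.57 (adjusted p 0.028, and 0.17 without 4 h replicate 1), and 11.1 and 7.35 at 8 h against 3.11 and 1.95 at 0 h (1.53 ± 0.57, adjusted p 0.040). Efna1, an ephrin ligand, had its lowest mean at 2 h, where its libraries overlapped those of 0 h and it did not pass. It held 11.6 and 2.77 at 0 h, 3.95 and 1.02 at 2 h, and 9.12 and 5.40 at 4 h. At 6 h the values of Efna1 were 11.3 and 17.9, and at 8 h 18.4 and 19.3. Its 0 h replicates were far apart, and the 8 h call (1.52 ± 0.60, adjusted p 0.049) stood at 0.65 without 0 h replicate 2 and was lost under 10 of the alternatives run. The channel subunit Cnga4 and the metalloproteinase Mmp12 rose by 1.47 and 1.26. Calls of Lgi2, Otogl and Sema4c were lost on leaving out 0 h replicate 2, and also on leaving out 8 h replicate 2. A wider list of ligands and receptors, which holds Efna1 and Sema4c, had 22 of 100 up and 13 down over the whole table.

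Surface proteins could also come from somatic cells, and the marker lists were read for that. Of 22 granulosa and cumulus markers, 4 were listed on ribosomes (Cyp19a1, Fshr, Nr5a2 and Serpine2), with a summed value of 524 to 529 at 8 h against 199 to 207 at 0 h. Gja1, Inha and Inhba were listed in total RNA alone, and the other 15, among them Foxl2, Amh, Kitl, Has2 and Ptx3, were in neither table. Of 19 blood, stroma and endothelium markers, Pecam1 and Tek were listed, with a summed value of 106 to 162 at 8 h against 155 to 189 at 0 h, and Ptprc, Cd68, Lyz2 and Adgre1 were in neither table. None of the 163 genes was on these lists, and the part of the higher granulosa sum in the change of the surface genes was not tested.

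Mad2l1bp and Lrif1, the pair placed under checkpoint and chromatin, both rose. Mad2l1bp, known as p31comet, helps to take the checkpoint protein MAD2 out of its inhibitory complex (chromosome 17, 46147387 to 46153553). It held 1.80 and 3.51 at 0 h, 4.98 and 6.08 at 2 h, 9.63 and 8.12 at 4 h, 11.1 and 7.77 at 6 h, and 11.2 and 12.6 at 8 h. No later library fell as low as those of 0 h, and the change was 1.54 at 6 h and 1.86 ± 0.49 at 8 h (limma adjusted p 0.027 and 0.0059). It was at 10 or more in 1 library of 6 h and both of 8 h, so its listing likewise rested on the times at which it was high. Lrif1, a nuclear protein that binds heterochromatin, held 14.1 and 17 at 8 h against 7.26 and 2.52 at 0 h (1.61 ± 0.48), a call lost without 0 h replicate 2 and without 8 h replicate 2. The wider list of kinetochore, spindle and cell cycle genes holds Mad2l1bp and Cep131. Of its 153 genes, 52 were up and 26 down at 8 h. Cep131, placed with the cytoskeleton and lamina genes, had a change of -0.98 at 8 h and did not pass.

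In the endoplasmic reticulum, Pigg rose and no gene of the 5 fell. Pigg, which adds a side group to glycosylphosphatidylinositol anchors, held 6.31 and 2.27 at 0 h, 9.28 and 8.85 at 2 h, 14.1 and 13 at 4 h, 17.4 and 19.1 at 6 h, and 13 and 25.5 at 8 h. Every later library exceeded both of 0 h, and the rise was 1.57, 1.97 and 1.98 at 4, 6 and 8 h (limma adjusted p 0.029, 0.004 and 0.0025). Its 4 h change stood at 0.99 without 0 h replicate 2 (adjusted p 0.20), that call was also lost without either 4 h library, and the 8 h call ended on leaving out 8 h replicate 2 (adjusted p 0.059). Ostc, a subunit of the enzyme that attaches N-linked glycans, rose at 4 h, with 14.4 and 10.3 against 0.522 and 6.03 at 0 h (2.01 ± 0.62, adjusted p 0.034), but stood at 0.91 without 0 h replicate 1. Like the other 4 h calls, that of Ostc was lost without 4 h replicate 1. At 8 h Ostc held 5.55 and 9.97, a change of 1.37 that did not pass.

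Zc4h2, a zinc finger gene on the X chromosome (95639193 to 95658509), had the largest rise of the 163. It held 10.7 and 11.8 at 8 h against 1.23 and 1.88 at 0 h, a change of 2.27 ± 0.59 (limma adjusted p 0.005). The course was not smooth, with 4.05 and 14.9 at 2 h, 2.68 and 4.88 at 4 h, and 17.1 and 10.5 at 6 h (2.51 ± 0.59 at 6 h, a call lost without 6 h replicate 1). Among the genes most like it over the 10 libraries were Fancb, of the Fanconi anaemia core complex (Pearson r 0.89), and Otogl (0.80), a description over libraries that share their time and depth.

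Of 36 signalling, cytoskeleton and vesicle genes, 7 fell at 8 h (19.4%, beside 21.8% of all genes) and none rose. Of 10 signalling genes 3 fell, led by Rapgef3, the cAMP-activated exchange factor EPAC1, with 4.40 and 0.800 at 8 h against 9.64 and 19 at 0 h (-2.23 ± 0.62). The phosphatase gene Ptpn18 and the kinase gene Nek3 fell by 1.5 and 1.49 on the log2 scale. Of 16 cytoskeleton and lamina genes 2 fell, Actg1, cytoplasmic gamma actin, with 9.83 and 6.49 against 27.1 and 21.4 (-1.48 ± 0.37), and Dctn6, a dynactin subunit (-1.30 ± 0.45). Actg1 shares 56.7% of its 50-base words with other genes, foremost the copy Gm12715, so its value is uncertain. Of 10 vesicle genes 2 fell, Necap1, of endocytosis (-1.72 ± 0.53), and Ap1s1, of the AP-1 coat (-1.54 ± 0.50). Over the whole table, 44 of 122 genes on the cytoskeleton and motor list were down and 18 up, and 55 of 188 on the vesicle traffic list were down and 31 up. Rapgef3 lost its call without 0 h replicate 2 and without 8 h replicate 2.

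Bre, which scaffolds deubiquitinase complexes, was the sole one of 4 ubiquitin and SUMO genes that passed, with 4.00 and 2.31 at 8 h against 11.3 and 13.2 at 0 h (-1.70 ± 0.52).

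Of the genes left unplaced, 9 fell and 1 rose. Upk3bl, a uroplakin-like membrane protein gene, held 2.83 and 0.831 at 8 h against 16.1 and 17.7 at 0 h (-2.75 ± 0.52, limma adjusted p 0.00044). Sertad3, with a mean of 18.1, held 12.6 and 11.8 against 18.5 and 34.8 (-1.0 ± 0.38, limma adjusted p 0.043). At 4 h, Ttc13 and the microtubule gene Map7d2 passed as falls (-1.86 ± 0.61 and -1.72 ± 0.49). Like the other 4 h calls, these were lost without 4 h replicate 1. Neither gene passed at 8 h (limma adjusted p 0.35 and 0.086).

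**Figure D5:**
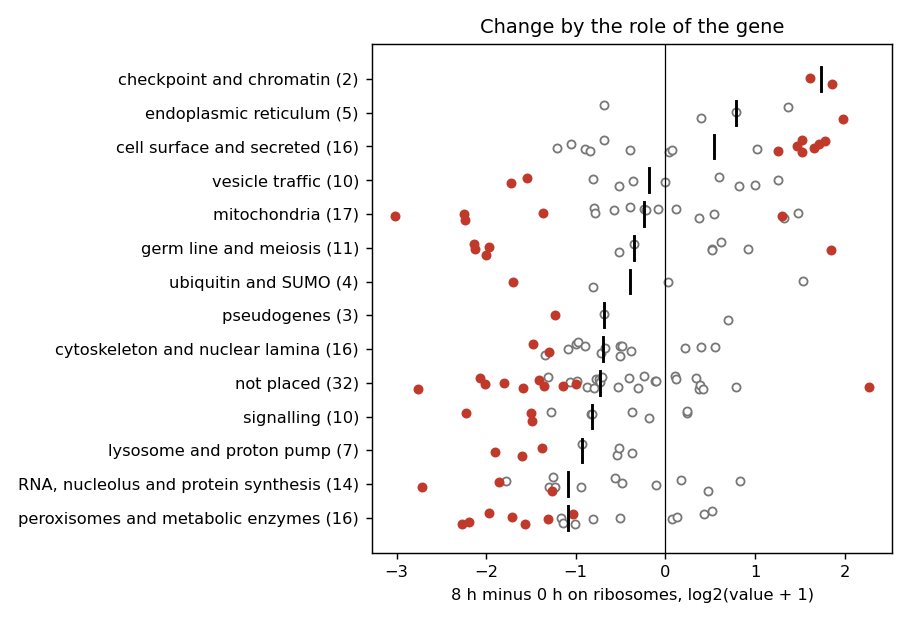
Change at 8 h against 0 h on ribosomes, log2(value + 1), of each of the 163 genes by role, with the number of genes in brackets; filled points passed the test, open points did not, and the black bar is the median. Filled points lie right of 0 in the cell surface group (7 of 16) and left of 0 in the peroxisome and metabolism group (7 of 16). Upk3bl, a membrane protein gene that fell, is among the genes not placed.

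A few genes were highest or lowest in mid-course. Cbr1, a carbonyl reductase, Myh14, a non-muscle myosin, and Tmem43, of the inner nuclear membrane, had their highest means at 4 h. In each, 4 h replicate 1, the library that stood apart, was the higher, with 25.9 beside 14.1 in Cbr1, 21.6 beside 12 in Myh14 and 23.5 beside 13 in Tmem43. Their 0 h values were 12.7 and 11.9, 10.3 and 11.7, and 12.2 and 12.2. They passed the F-test (adjusted p 0.048, 0.012 and 0.043) and none passed at 4 h against 0 h. Mlip, a lamin-interacting protein gene, was lowest at 6 h, with 2.31 and 3.52 against 13 and 11.6 at 0 h (-1.78 ± 0.48, adjusted p 0.011).

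The annotated transcripts of the 163 genes had a lower median length than those of the table, a difference that was not tested. Of the 163, 162 were found by identifier in GENCODE vM21, 156 of them protein coding, with 4 pseudogenes and 2 long intergenic RNAs, and 12 lay on the X chromosome. Their median transcript was 2301 bases long, beside 3384 over the table. Those that fell at 8 h had a median of 1447 bases, beside 2542.5 for all genes that fell, and those that rose had 2484, beside 3800. At least 20% of the 50-base words of 13 genes, and at least 50% of those of 6, also occurred in another gene. The 6 include Pcna-ps2 (63.8%, shared with Pcna), Vdac3-ps1 (81.8%, foremost with Vdac3) and Tpt1-ps3 (100%, shared with Tpt1), whose reads may belong to the parent genes. Exons of 48 genes overlapped another gene, in 12 cases one that is listed on ribosomes.

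Cytoplasmic polyadenylation elements, which recruit the tail-lengthening machinery in oocytes, were looked for as TTTTAT or TTTTAAT in the last 100 bases of the annotated transcript, on the transcript strand. They were present in 4 of the 13 genes that rose at 8 h (30.8%), in 1 of 37 that fell (2.70%) and in 17 of 101 that were not called (16.8%). The corresponding shares over the table were 36.4% of all genes that rose, 10.3% of all that fell and 21.5% of all 7007 with such a window. No element of the 163 overlapped a poly(A) signal (AATAAA or ATTAAA), which 88.1% of the 163 and 82.7% of all genes held. For the 4 that rose and the 1 that fell, the called genes that carry the element, 30 bases around it are given from GRCm38, 5′ to 3′, with the element in capitals.
Sema4c: atatttgagtatTTTTATattgacaaataa
Efna1: tcataataaattgatggttTTTTATggaca
Lrif1: tgatattgttatTTTTATttcatcaataaa
Otogl: attcttctgctaTTTTATaaacaacaaata
Ttc5: ttttaatTTTTATgtttaagttccgattgt
The windows come from chromosomes 1 (Sema4c), 3 (Efna1 and Lrif1), 10 (Otogl) and 14 (Ttc5), all on the minus strand except Lrif1. Counted from the transcript end, the element starts at base 50 in Sema4c, 11 in Efna1, 57 in Lrif1, 39 in Otogl and 93 in Ttc5. Efna1 holds 2 matches in the last 100 bases. The match nearer the end is shown, and it lies after the AATAAA of the same window. In Ttc5, whose window also holds the TTTTAAT form just before the capitals, the values were 10.7 and 2.61 at 8 h against 25.9 and 26.7 at 0 h (-2.07 ± 0.48, limma adjusted p 0.0022). A match is a run of letters in an annotated end and was not tested as a site.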

How the data were processed

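The 20 libraries comprise ribosome-bound and total RNA at 5 times, 2 per group, grouped by sample titles. The authors deposited a signal, scaled CPM per gene. The submitters' processing notes name mm10 as genome build and limma, edgeR, HTSeq, SAMtools, HISAT2, Trimmomatic 0.36 and FastQC as tools; no label or header used here states the listing rule, strand or handling of shared reads. Plain CPM had been assumed; the log2 test was kept. In each library 100% of values were multiples of 1 step within 0.01 of a read, from which depth was inferred.

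Values were tested as log2(value + 1) with limma 3.58.1 (R 4.3.3), with a mean-variance trend, no block and two-sided tests; the filter (1 in at least 2 libraries) removed no gene. The fit was tested on simulated data. Tables were built in Python 3.11.15 with pandas 2.3.3. Named genes are the 10 largest rises and falls at 8 h and 3 each at 2, 4 and 6 h that passed without overlap, the 5 highest means, up to 3 mid-course highs and lows, and the 3 lowest and highest maxima (1 gene that the rule names is not reported here); other genes were named after their values were seen, and the genes, lists and tests were chosen with earlier results of these data known. Replicate numbers were not taken as pairs: deviations of same-numbered libraries correlated at -0.107 to 0.0487 over 10 pairs.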

Additional observations from a re-analysis of the deposited data

How the results depend on the processing

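Counts of calls give the 163 genes first and all genes after them. With each library left out in turn they ran over 0 to 1 and 15 to 171 at 2 h, 0 to 10 and 461 to 1120 at 4 h, 6 to 23 and 1267 to 2183 at 6 h, 21 to 57 and 2159 to 3249 at 8 h, and 7 to 41 and 1833 to 2839 in the F-test. A mean of at least 10 was met by 65 of the 163, and with this setting the rest were not tested. It gave 3 and 1204 at 4 h, 6 and 2086 at 6 h, and 24 and 3079 at 8 h. The F-test then gave 12 and 2575. With only the 2 times compared in the fit, 1 of the 163 passed at 4 h, and 38 of all genes at 2 h and 572 at 4 h. With no mean-variance trend, 0 of all genes passed at 2 h and 661 at 4 h. With a replicate block, the 163 gave 0, 6, 18 and 50 calls at 2, 4, 6 and 8 h and 26 in the F-test, and all genes 57 at 2 h; 49 of the 50 were called in the same direction without the block, and 2 named calls were lost (Ttc13 and Glmp at 4 h). The causes were not tested. Centring libraries on their medians turned the larger direction over all genes at 8 h (1677 up, 1487 down) but not among the 163 (14 up, 36 down, 49 of the 50 shared).

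Of 32 named calls, 11 held under every alternative that tested them. At 8 h these were Zc4h2, Mad2l1bp, Spint2, Atpif1, Upk3bl, Pop5, Fis1, Nudt19 and Figla, and at 6 h Pigg and Pop5. The setting with a mean of at least 10 tested only 8 of the 32 calls. Of the 11, it tested Fis1 at 8 h and Pigg at 6 h alone. None of the 6 calls at 4 h held in this way, and none of the 32 changed sign. Leaving out 0 h replicate 2 ended 15 and 8 h replicate 2 ended 10. A count-based test was planned and not run. Having 2 libraries per group limits precision: the median standard error of a change was 0.51 for the 163 genes.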
